A study of Mus musculus with 6 samples.

Results

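The genes described here encode the enzymes of mitochondrial fatty acid oxidation and of branched-chain amino acid catabolism, 39 of the 52089 gene symbols in the deposited RNA-seq table. They were taken from a list of names that follows the known pathway, drawn up with earlier results of these libraries known. All 39 were found in the table, and 38 passed the filter of a mean of at least 1 RPKM (read number relative to transcript length in kilobases and to library depth) over the 6 libraries. The exception was *Bdh1*, an enzyme that interconverts the ketone bodies, at 0.0872 to 0.297 RPKM.

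The cells were primary brite adipocytes, the thermogenic adipocytes that arise from progenitors in white adipose tissue. They were grown from the stromal-vascular fraction of the inguinal fat of male 129SvEv mice a few weeks old, induced for 2 days, and kept in differentiation medium with rosiglitazone. On day 1 of differentiation, 3 samples received 50 nM of an LNA Gapmer against the long noncoding RNA *Ctcflos* (*Ctcflos* KD) and 3 received 50 nM of a nontargeting Gapmer (control), and RNA was harvested 24 h later. The legends of the study name ASO1, a single oligonucleotide against transcript 1 of *Ctcflos*, as the agent, so an effect of its sequence apart from the KD cannot be told apart from the KD. The sources do not state that replicates were separate preparations of cells, and p-values then measure only the spread between these libraries.

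Fatty acids enter the mitochondrion as carnitine esters and are shortened in a repeating spiral of dehydrogenation, hydration, a further dehydrogenation and thiolysis. The electrons of the first step pass over the electron transfer flavoprotein to the respiratory chain. Leucine, isoleucine and valine are transaminated, decarboxylated by the branched-chain ketoacid dehydrogenase complex and then broken down in separate branches by enzymes related to those of the spiral. Brown and brite adipocytes are known for using both kinds of fuel for heat production.

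*Ctcflos* (listed as *1300015D01Rik*) stood at 0.0969, 0.0705 and 0.210 RPKM in the KD libraries and at 0.748, 0.751 and 0.840 RPKM in the controls, which left 16.1% of the control mean. The depth, recovered from the values, was 60.8 to 75.5 mio mapped reads in *Ctcflos* KD and 62.9 to 79.2 mio in controls. Adipocyte markers were abundant in every library, with 632 to 1045 RPKM of *Adipoq* in KD and 1146 to 1247 RPKM in control. The summed RPKM of the 8 adipocyte markers was 4440 to 5921 in KD and 6109 to 6769 in control, and that of the 8 brite and brown markers was 70.8 to 92.0 against 124 to 195. Of the 8 genes of the adipocyte list, 1 (*Cebpa*) was called lower, and of the brite list 3 of the 6 past the filter (*Ucp1*, *Elovl3* and *Ppargc1a*) were. Over all genes tested, 12.4% were called lower and 11.5% higher. Fold changes were negative in 7 adipocyte genes and in all 6 brite genes, while *Cidec* stood at 108% of the control mean. *Dio2* of the brite list, below the filter, was higher in every KD library, at 0.347, 0.589 and 0.293 RPKM against 0.128, 0.206 and 0.256 in control. The summed markers of preadipocytes and stroma, mostly *Ly6a*, were 173 to 397 RPKM in KD and 271 to 446 in control. Of 4 genes past the filter, 1 (*Pdgfra*) was called lower. The others of this list overlapped between groups. *Cd34*, *Dlk1* and *Pi16* stood at 124%, 136% and 129% of the control mean, and *Ly6a*, *Thy1* and *Dpp4* at 81.2%, 94.9% and 40.5%. Macrophage markers summed to 3.26 to 5.43 RPKM in KD and 0.940 to 2.80 in control, with *Cd68* called higher. *Csf1r*, below the filter, was also higher in every KD library, at 1.31, 1.48 and 1.10 RPKM against 0.269, 0.833 and 0.438 in control. *Ptprc* of the same list was at or below 0.0486 RPKM in every library, and lower in every KD library. Endothelial markers summed to at most 1.04 RPKM in any library, and mural markers, nearly all *Acta2*, to 17.5 to 48.8 RPKM in KD and 32.2 to 84.4 in control, with control replicate 2 the highest. The part of these shifts in the results was not tested, and in bulk RNA fewer cells of a type and less RNA per cell cannot be told apart.

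Among the enzymes of fatty acid and branched-chain oxidation, called changes in *Ctcflos* KD were all decreases, to between 49.7% and 73.0% of the control mean. Of the 38 genes past the filter, 36 had a negative log2 fold change, and 10 were called lower at an adjusted p under 0.05 (limma on log2(RPKM + 1), Benjamini-Hochberg adjustment over 11701 genes). This is 26.3% of the genes, where 12.4% of all genes tested were called lower. None of the 38 was called higher, against 11.5% of all genes tested, and at an unadjusted p under 0.05 the same limma fit had 18 genes lower and 0 higher. The median log2 fold change of the 38 was -0.30, with a range from -0.83 to 0.13, beside 0.028 over all genes tested.

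Every KD library lay below every control in 21 of the 38 genes, or 55.3%, where 21.9% of all genes tested showed this, and above every control in none of them, where 22.9% of all genes did. All 10 called genes were among the 21. The controls were not alike. Control replicate 2 was the lowest control in 37 of the 38 genes and lay at or below the highest KD library in 17 of them, while control replicates 1 and 3 did so in 4 and 5. The median log2 difference of the 38 genes from the mean of all controls was -0.32, -0.29 and -0.26 in the KD libraries. Each control was set against the mean of the other controls. This gave 0.17 and 0.089 in control replicates 1 and 3, and -0.27 in control replicate 2. Leaving a control out of its own reference widens its difference, so these values are not on the scale of the KD values. Over all genes tested the medians of the 6 libraries lay between -0.058 and 0.055. *Ucp1*, the uncoupling protein of thermogenic adipocytes, showed the same control at 27.1 RPKM beside 67.0 and 57.3, and *Acta2* showed it at 83.6 RPKM beside 31.6 and 38.8.

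**Figure D1:**
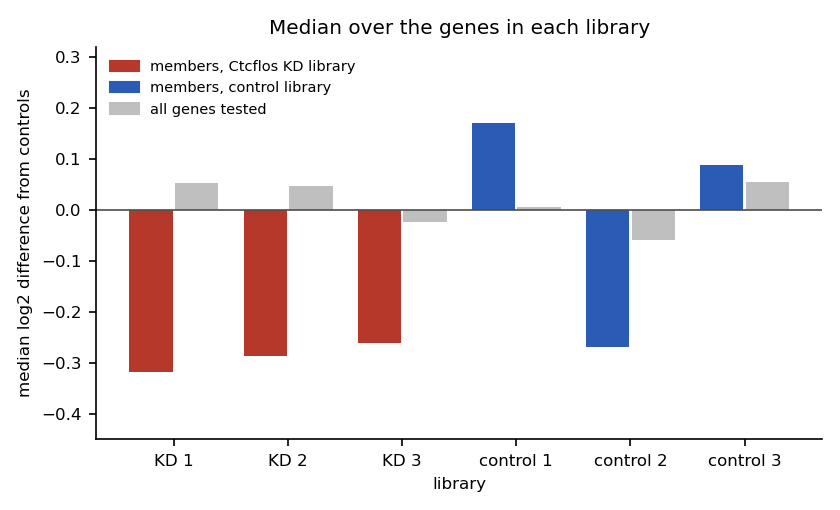
Median log2 difference from controls in each library, over the 38 pathway genes (colored bars) and over all genes tested (grey bars). KD libraries are set against the mean of the 3 controls, and each control against the mean of the other controls. The 3 *Ctcflos* KD libraries lie between -0.32 and -0.26. Control replicate 2 lies at -0.27 on its own reference, which widens its difference, while its median over all genes is -0.058.

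The count of called genes rested on single libraries. It fell from 10 to 0 without control replicate 1, where 2.6% of all genes were called lower, and to 0 without control replicate 3, where 2.4% were. It was 4 without KD replicate 1 and 4 without KD replicate 2, where 5.93% and 5.32% of all genes were called lower. It was 15 without KD replicate 3, where the share of all genes was 17.6%, and 8 without control replicate 2, where it was 8.61%. *Acad9*, *Hadha* and *Pcca* kept their calls with any other library left out, and their adjusted p in limma without control replicate 1 or 3 was 0.051 to 0.065. The median fold change kept its sign in these fits, from -0.38 without control replicate 2 to -0.26 without control replicate 1.

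**Figure D2:**
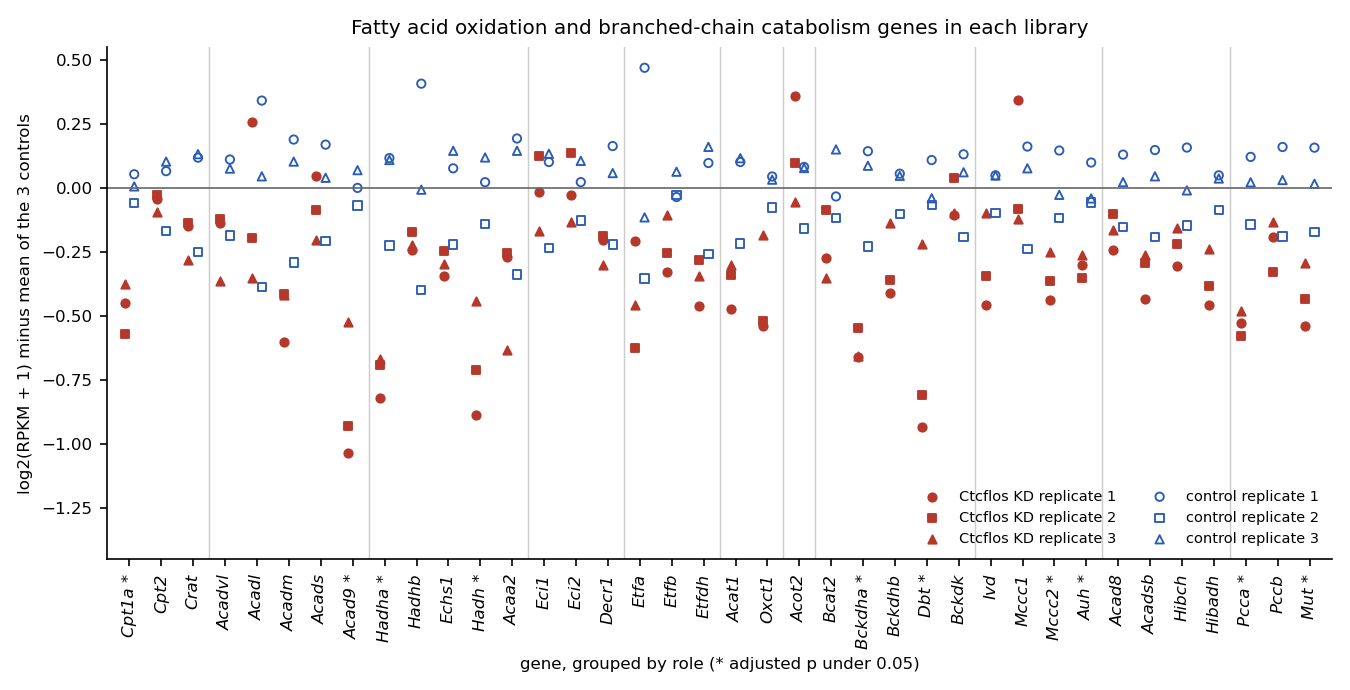
Each gene past the filter in each library, as log2(RPKM + 1) minus the mean of the 3 controls, grouped by role in the order of the text. Filled red symbols are *Ctcflos* KD and open blue symbols are control. On this scale, whose added 1 shrinks the changes of genes at few RPKM, the largest mean drops are those of *Acad9*, *Hadha* and *Hadh*. Control replicate 2 (open squares) is the lowest control nearly throughout.

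Of the carnitine shuttle, 1 of 3 genes was called lower. *Cpt1a* (chr19:3322334-3385733), which loads fatty acids onto carnitine at the outer membrane and sets the pace of their entry, stood at 5.20, 4.69 and 5.52 RPKM in KD and 7.78, 7.12 and 7.50 RPKM in control. The groups did not overlap, and *Cpt1a* changed by -0.47 (SE 0.0991) on the log2 scale, with an adjusted p of 0.017 in limma. *Cpt2*, which releases the fatty acid at the inner membrane, was the most abundant of the 3 and stood at 50.8, 51.4 and 49.0 RPKM in KD and 54.8, 46.5 and 56.3 in control. These groups overlapped, with a log2 fold change of -0.053 and a 95% interval from -0.34 to 0.23. *Crat*, which transfers acetyl groups to carnitine, had a fold change of -0.19 (interval from -0.51 to 0.13).

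All 5 acyl-CoA dehydrogenases of straight-chain fatty acids had negative fold changes, and 1 was called. *Acad9*, a family member that also serves in the assembly of respiratory complex I, had the largest change of all 38 genes. It stood at 2.42, 2.68 and 3.88 RPKM in KD and at 6.01, 5.68 and 6.36 RPKM in control, 49.7% of the control mean. KD replicate 3 was the highest of its group, and there was no overlap (log2 fold change -0.83, SE 0.141, adjusted p 0.0092 in limma). *Acadm*, the medium-chain enzyme, had the highest mean of these 5 over the 6 libraries, though not among the KD libraries alone, and stood at 31.4, 35.8 and 35.8 RPKM in KD and at 55.0, 39.1 and 51.7 RPKM in control. Its groups did not overlap either, but control replicate 2 lay near the KD libraries and the adjusted p of -0.48 (SE 0.154) was 0.056. The very long-chain, long-chain and short-chain enzymes *Acadvl*, *Acadl* and *Acads* overlapped between groups, with fold changes of -0.21, -0.098 and -0.081.

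In the later steps of the spiral, 2 of 5 genes were called lower. *Hadha*, the subunit of the mitochondrial trifunctional protein that hydrates and dehydrogenates long-chain intermediates, stood at 24.3, 26.7 and 27.1 RPKM in KD and 47.4, 37.2 and 47.2 RPKM in control. It changed by -0.73 (SE 0.135, adjusted p 0.011 in limma) without overlap. *Hadh*, which dehydrogenates the shorter hydroxyacyl-CoA intermediates, stood at 39.1, 44.4 and 53.5 RPKM in KD and 74.3, 66.3 and 79.5 in control. The change of *Hadh* was -0.68 (SE 0.151, adjusted p 0.019 in limma), again without overlap. *Acaa2*, a thiolase and the most abundant of the 38 genes, stood at 128, 129 and 99.3 RPKM in KD and 177, 122 and 171 in control. Its groups overlapped through control replicate 2, and the fold change of -0.39 (SE 0.186) had an adjusted p of 0.16 in limma. *Echs1*, a hydratase of short chains, was lower in every KD library at -0.30 but not called (adjusted p 0.13 in limma), and *Hadhb*, the thiolase subunit of the trifunctional protein, overlapped at -0.21.

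*Hadha* and *Hadhb* lie head to head on chromosome 5, at chr5:30118304-30155162 on the minus strand and chr5:30155248-30184593 on the plus strand (GRCm38, Gencode vM21). The stretch of 85 bases between their annotated starts, chr5:30155163-30155247, is shown because both subunits of the trifunctional protein are read outward from it. It is given on the plus strand, from the RefSeq promoter window of *Hadhb* (GRCm38.p6), with the motif GGGCGG, the core letters of a GC box, in capitals.

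Hadha-Hadhb: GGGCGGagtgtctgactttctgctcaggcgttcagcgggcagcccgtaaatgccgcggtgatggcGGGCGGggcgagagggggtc

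GGGCGG occurs at both marked places on this strand, and on either strand it is held by 21 of 36 promoter windows of these genes (58.3%) and by 35.7% of all 32851 windows of 300 bases. CCAAT, searched on both strands as well, is absent from the 85 bases and is held by 47.2% of the windows of these genes and 37.4% of all. RefSeq places the start of *Hadha* further into the gene than Gencode does.

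None of the 3 enzymes for unsaturated fatty acids was called. *Decr1*, a reductase of dienoyl-CoA and the most abundant of the 3, stood at 21.8, 22.1 and 20.3 RPKM in KD and 28.5, 21.6 and 26.4 in control, which overlap (log2 fold change -0.23, 95% interval from -0.53 to 0.071). The isomerases *Eci1* and *Eci2* had fold changes of -0.021 and -0.0088, with intervals from -0.35 to 0.31 and from -0.29 to 0.27. Of the 15 accessions of *Eci2* in the table, 9 were lower and 6 higher in the KD mean, and 1 of the higher ones did not overlap between groups.

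No gene of the electron transfer flavoprotein was called. *Etfb*, the beta subunit, stood at 80.0, 84.3 and 93.7 RPKM in KD and 98.4, 99.0 and 105 in control. Its groups did not overlap, and its fold change was -0.23 (SE 0.123, adjusted p 0.20 in limma). *Etfdh*, which hands the electrons on to ubiquinone, was likewise lower in every KD library, at -0.36 (adjusted p 0.098 in limma). *Etfa*, the alpha subunit, overlapped at -0.43, with 6.56 RPKM in control replicate 1 and 2.54 to 4.04 in the other libraries.

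*Oxct1* and *Acat1* turn ketone bodies into acetyl-CoA, and both were lower in every KD library without passing the threshold. *Oxct1* stood at 21.4, 21.7 and 27.7 RPKM in KD and 32.6, 29.9 and 32.3 in control (log2 fold change -0.41, SE 0.133, adjusted p 0.056 in limma). *Acat1*, which also cleaves the last intermediate of isoleucine, had -0.37 and an adjusted p of 0.072 in limma. *Bdh1* was below the filter and had -0.10 in the fit without a filter. *Acot2*, a mitochondrial thioesterase that frees fatty acids from coenzyme A, was 1 of 2 genes with a positive value. It stood at 17.2, 14.3 and 12.7 RPKM in KD and 14.1, 11.8 and 14.0 in control, and its groups overlapped (0.13, interval from -0.19 to 0.45). *Acot2* has close paralogs, and reads shared with them make its values uncertain.

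**Figure D3:**
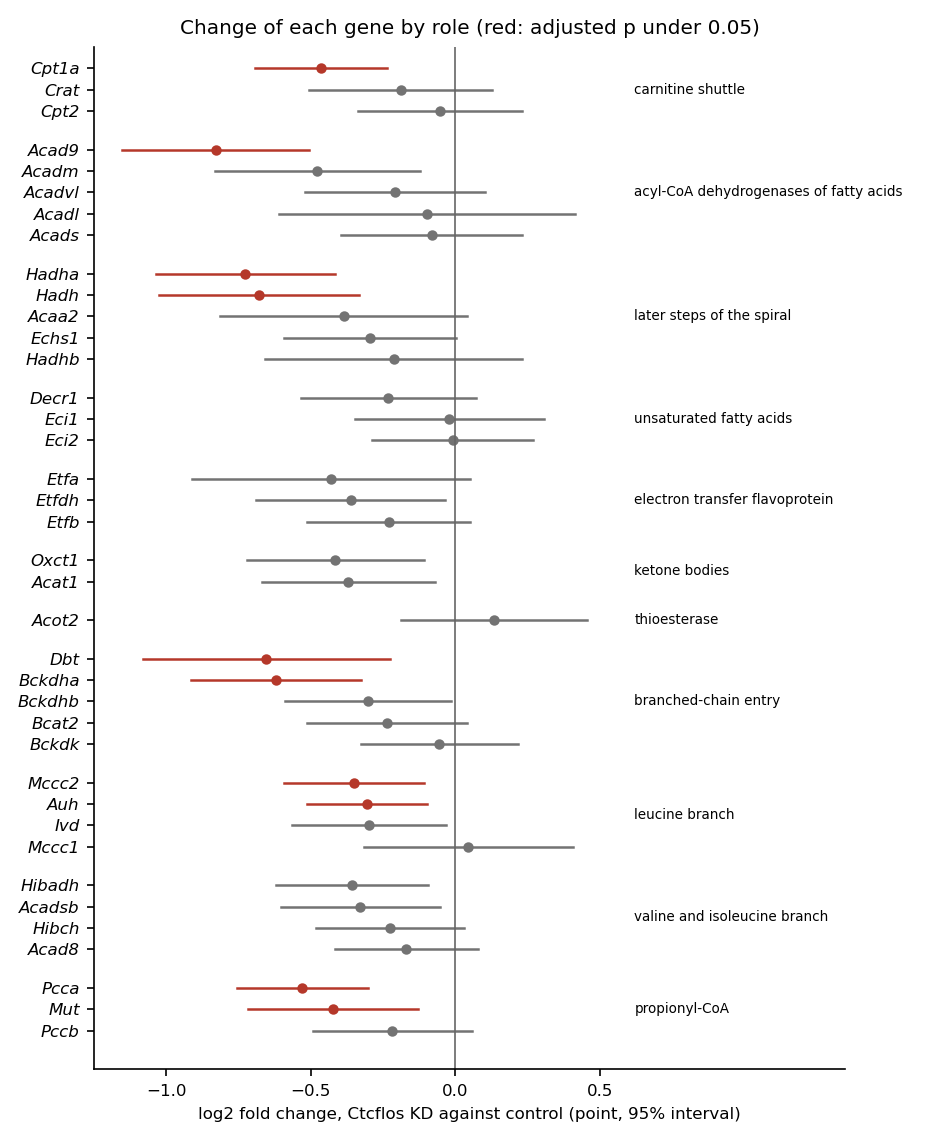
Log2 fold change of *Ctcflos* KD against control with its 95% interval for the 38 genes past the filter, grouped by role. The 10 genes called by limma are red, from *Acad9* at -0.83 to *Auh* at -0.30. *Auh* is near 1 RPKM, where the added 1 shrinks the fold change, and stood at 67.1% of the control mean. The only positive points are *Acot2* at 0.13 and *Mccc1* at 0.046.

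The branched-chain genes held 6 of the 10 called genes. Of 16 genes from transamination to methylmalonyl-CoA, 6 were called lower, 11 did not overlap between groups, and the median fold change was -0.30. For the 19 genes of the carnitine shuttle, the spiral, unsaturated fatty acids and the electron transfer flavoprotein the counts were 4 and 8 and the median was -0.23. Over all genes tested, 12.4% were called lower and 21.9% were lower without overlap. The difference between the pathways was not tested.

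At the entry to the pathway, 2 of 5 genes were called. *Bckdha*, the alpha subunit of the decarboxylase of the branched-chain ketoacid dehydrogenase complex (chr7:25629946-25658981), stood at 10.4, 11.4 and 10.5 RPKM in KD and 19.0, 14.4 and 18.2 in control. It changed by -0.62 (SE 0.128, adjusted p 0.015 in limma) without overlap. *Dbt*, the transacylase core of the complex (chr3:116513070-116549981), stood at 8.53, 9.40 and 14.7 RPKM in KD and 18.6, 16.4 and 16.7 in control. KD replicate 3 was close to the controls, and the change of *Dbt* was -0.65 (SE 0.186, adjusted p 0.039 in limma). *Bckdhb*, the beta subunit of the decarboxylase, was the most abundant of the group. It stood at 28.7, 29.7 and 34.9 RPKM in KD and 40.0, 35.8 and 39.8 in control, without overlap and not called (-0.30, SE 0.125, adjusted p 0.11 in limma). The mitochondrial aminotransferase *Bcat2* overlapped at -0.24, and so did *Bckdk*, the kinase that inactivates the complex, at -0.055.

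In the leucine branch, *Mccc2* and *Auh* were called lower, *Ivd* was not called and *Mccc1* had a positive value. *Mccc2*, the beta subunit of methylcrotonyl-CoA carboxylase, stood at 1.18, 1.29 and 1.48 RPKM in KD and 2.27, 1.72 and 1.90 in control (log2 fold change -0.35, SE 0.105, adjusted p 0.045 in limma). *Auh*, the methylglutaconyl-CoA hydratase, stood at 0.940, 0.870 and 0.993 RPKM in KD and 1.56, 1.30 and 1.32 in control (-0.30, SE 0.0905, adjusted p 0.044 in limma). Both are near the filter and did not overlap between groups. When the median over accessions replaced the mean, *Auh* fell below the filter, and limma without a filter gave an adjusted p of 0.27. *Ivd*, the isovaleryl-CoA dehydrogenase and the most abundant of the branch, stood at 2.15, 2.40 and 3.04 RPKM in KD and 3.47, 3.04 and 3.47 in control (-0.30, SE 0.116, adjusted p 0.095 in limma). KD replicate 3 and control replicate 2 of *Ivd* nearly met. *Mccc1*, the alpha subunit partner of *Mccc2*, had 0.046 with an interval from -0.32 to 0.41, and its groups overlapped. KD replicate 1 was its highest library, at 1.93 RPKM, and with 1 library left out its fold change ranged from -0.10 to 0.13. All 6 of its accessions with a mean of at least 1 RPKM were higher in the KD mean, but they share reads.

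None of the 4 genes of the valine and isoleucine branch was called, and all had negative values. *Hibadh*, the hydroxyisobutyrate dehydrogenase, stood at 19.5, 20.6 and 22.8 RPKM in KD and 28.1, 25.5 and 27.8 in control. It was the gene nearest to the threshold without passing it, at -0.36 (SE 0.114, adjusted p 0.055 in limma), while *Mut* was nearest inside it. *Acadsb*, the dehydrogenase of short branched chains, and *Hibch*, a hydrolase of valine breakdown, were lower in every KD library at -0.33 and -0.23. *Acad8*, the isobutyryl-CoA dehydrogenase, overlapped at -0.17.

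Propionyl-CoA, the common product of valine, isoleucine and odd-chain fatty acids, is carboxylated by *Pcca* and *Pccb* and rearranged by *Mut*. *Pcca*, the alpha subunit (chr14:122534324-122891100), stood at 1.72, 1.63 and 1.81 RPKM in KD and 3.27, 2.56 and 2.99 in control. It changed by -0.53 (SE 0.0992, adjusted p 0.012 in limma), with tight KD values and no overlap. *Mut*, the methylmalonyl-CoA mutase, stood at 11.8, 12.7 and 14.1 RPKM in KD and 19.7, 15.5 and 17.8 in control (-0.42, SE 0.128, adjusted p 0.047 in limma). *Pccb*, the beta subunit, overlapped at -0.22.

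Several of these enzymes are built of different subunits. The log2 ratio of RPKM was taken within each library for 7 pairs of genes of a complex, chosen after the values were seen. In all 7 pairs the more lowered gene was put on top. A negative difference of KD from control thus followed from the choice, and the ratios are a description with no test. Whatever scales both genes of a library alike drops out of a ratio. *Bckdha* to *Bckdk* was 0.57 ± 0.024 in KD and 1.17 ± 0.024 in control (SD, n = 3 each), a difference of -0.61 that control replicate 2 shared with the other controls. *Pcca* to *Pccb* was -1.58 ± 0.048 in KD and -1.07 ± 0.027 in control. In these pairs the spread within groups was the smallest of the 7.

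*Hadha* to *Hadhb* stood at -0.0054, 0.055 and 0.13 in KD and 0.29, 0.77 and 0.71 in control, without overlap. *Mccc2* to *Mccc1* differed by -0.65, with the widest spread in KD (-0.72, 0.13 and 0.40), where KD replicate 3 nearly met control replicate 3. *Bckdha* and *Dbt* to *Bckdhb* differed by -0.36 and -0.40, and in the ratio of *Dbt* to *Bckdhb* KD replicate 3 lay next to control replicate 3. *Etfa* to *Etfb* overlapped. With RefSeq accessions alone, *Mccc2* to *Mccc1* overlapped as well. The pairs share *Bckdha* and *Bckdhb* and are not independent.

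**Figure D4:**
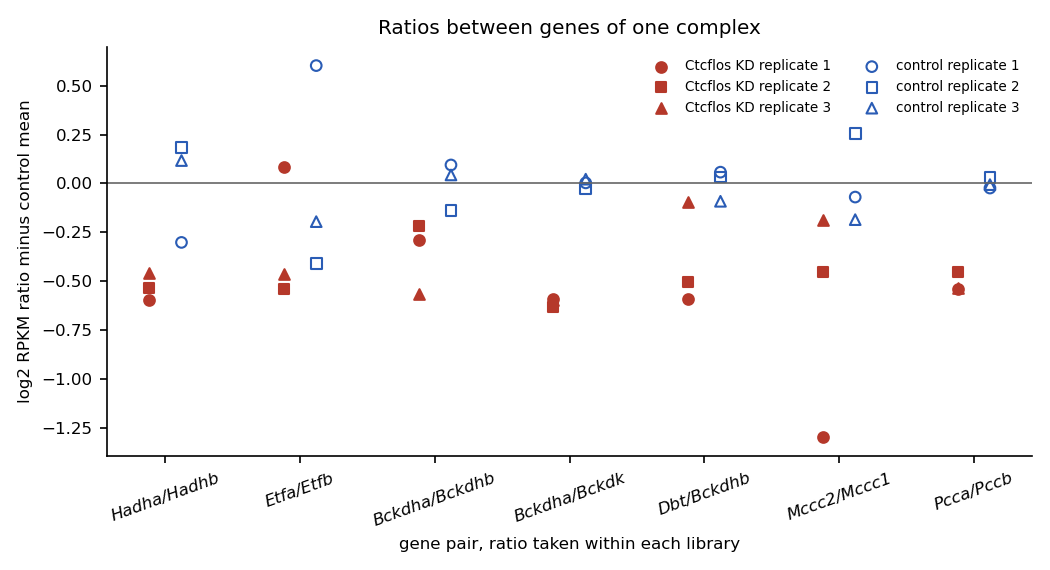
Log2 ratio of RPKM between 2 genes of a complex within each library, minus the mean of the controls. Filled red symbols are *Ctcflos* KD and open blue symbols control. *Bckdha*/*Bckdk* and *Pcca*/*Pccb* show the least spread within groups, at -0.61 and -0.51, and *Etfa*/*Etfb* overlaps.

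A gene value is the mean over all accessions of a symbol, and the accessions of a gene share reads. For *Acad9* (10 of 10), *Hadh* (6 of 6), *Dbt* (5 of 5), *Cpt1a* (5 of 5), *Pcca* (6 of 6) and *Mut* (6 of 6), every accession with a mean of at least 1 RPKM was lower in KD without overlap. For *Hadha* all 11 were lower, 10 of them without overlap. The exons of 16 of the 39 genes overlap exons of another gene in Gencode vM21, among them 5 of the called genes (*Acad9*, *Bckdha*, *Hadha*, *Mut* and *Pcca*). In 13 of the 16 the other gene is on the opposite strand. The counting is not stated to use strand, so reads of overlapping genes cannot be told apart there. For *Acad9*, *Etfb* and *Hibadh* the overlap is on the same strand, where counting by strand would not separate the reads either.

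The 39 genes lie on 17 chromosomes. Their median span was 29.3 kb, beside 20.6 kb for the genes tested that have a span. Over all genes tested, the 920 of 100 kb or more had a median of -0.34, and 45.1% of them were called lower. *Oxct1*, *Bckdhb* and *Pcca* are of this size, with a median of -0.41, and *Pcca* was called. Among the 35 shorter genes past the filter, 9 were called lower and the median was -0.30, where 10.2% of all 8486 shorter genes were called lower and their median was 0.052. Across the 38 genes the rank correlation of fold change and span was -0.41, and across 9406 genes it was -0.26. Genes are not independent replicates, and all points share the same 6 libraries. The rank correlation of fold change with mean RPKM was -0.0084 across the 38.

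**Figure D5:**
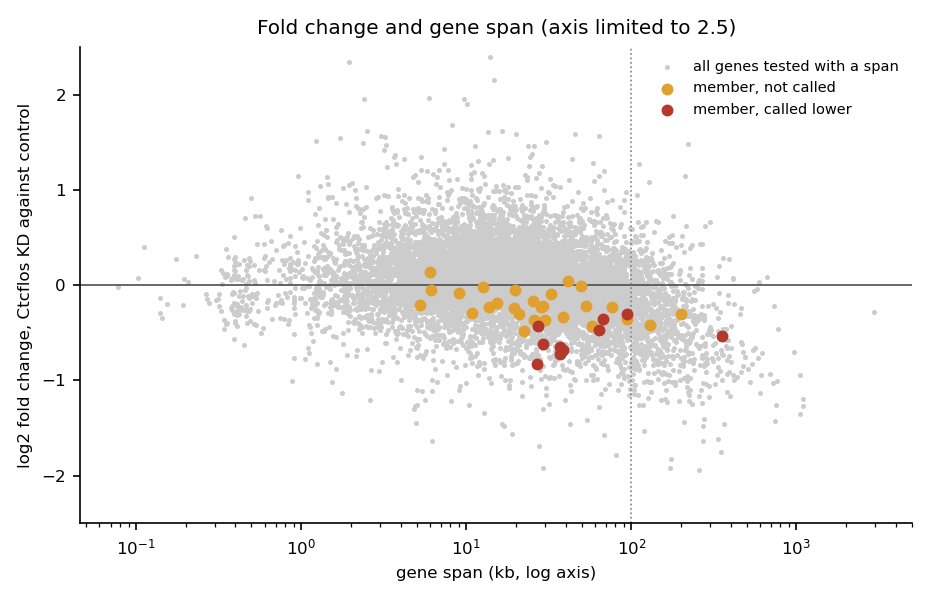
Log2 fold change against gene span (log axis, kb) for the genes tested that have a span (grey) and for the 38 pathway genes (orange, and red where called lower). The vertical axis ends at 2.5 in either direction and the dotted line marks 100 kb. Left of the line lie 35 of the 38 pathway genes, among them 9 of the 10 called genes. All genes tested on that side have a median of 0.052.

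Nuclear receptors of fatty acid metabolism, PPAR with RXR among them, bind direct repeats of AGGTCA spaced by 1 base. Promoter windows from 250 bases before to 50 bases after the start were found in RefSeq (GRCm38.p6) for 32 of the 39 genes, 36 windows in all. The exact repeat, searched on both strands, was in 0 of the 36 and in 0.0396% of all windows. With up to 2 mismatches it was in 3 of the 36 (8.33%) and in 3.86% of all windows. TCAAGGTCA, the extended site of estrogen-related receptors, was in 0 of the 36 and in 0.423% of all. The 3 matches with mismatches are shown with 8 bases on either side, on the strand of the gene, with the 13 matched bases in capitals. Each has 2 mismatches, and in *Etfa* the repeat reads on the other strand.

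Echs1, chr7:140116484-140116512, minus strand: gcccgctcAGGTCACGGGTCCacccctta

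Etfa, chr9:55512300-55512328, minus strand: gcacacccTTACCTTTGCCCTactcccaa

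Pcca, chr14:122534319-122534347, plus strand: cttgacgaGGGTGAGAGGTCAgcagccgg

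Of these 3 genes only *Pcca* was called lower, and its match sits at the start itself, 1 base before it. The matches are letters and not measured sites. The windows of these genes had a median GC content of 59.5%, beside 52.7% over all windows.

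Of 20 further genes of fatty acid oxidation, 15 passed the filter and 5 were called lower, with a median log2 fold change of -0.28 over the 15, where 12.4% of all genes tested were called lower. The carnitine transporter gene *Slc22a5* had -0.73 (adjusted p 0.0089 in limma). *Cpt1b*, the muscle and brown fat form of the carnitine palmitoyltransferase, had -0.52 (adjusted p 0.024 in limma). The control mean of *Cpt1b* was 22.9 RPKM, beside 7.47 RPKM for *Cpt1a*. *Acad11*, an acyl-CoA dehydrogenase, and the thioesterases *Acot9* and *Acot13* were lower as well, at -0.72, -0.78 and -0.54. Of 13 further genes around branched-chain catabolism, all passed the filter, with a median of -0.30, and *Abat*, *Mmaa* and *Acss3* were called lower at -0.56, -0.38 and -0.37, which is 3 of 13 beside the same 12.4%. *Mmaa* serves the cobalamin cofactor of *Mut*. *Acot9* was called in all 13 alternative settings, and the other 7 called genes of these lists were not.

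Of the 10 regulators listed, 9 passed the filter and 5 were called lower, with a median of -0.51 over the 9, beside 12.4% of all genes called lower. *Rxra*, the partner receptor of PPARs, stood at 1.73, 1.28 and 2.59 RPKM in KD and 4.81, 4.81 and 4.75 in control, with near-equal controls (-1.04, SE 0.156, adjusted p 0.0071 in limma). *Rxra* was called in all 13 alternative settings and the other 4 called regulators were not. *Ppara*, the fatty acid receptor that drives oxidation genes, stood at 5.0, 4.69 and 5.07 RPKM in KD and 11.5, 6.62 and 11.1 in control, with control replicate 2 between the groups (-0.83, adjusted p 0.019 in limma). The coactivators *Ppargc1a* and *Ppargc1b* changed by -0.55 and -0.54, and *Klf15*, a regulator of amino acid catabolism, by -0.51. The other 4 past the filter were not called, with -0.46 for *Esrra*, -0.36 for *Pparg*, 0.18 for *Nrip1* and 0.25 for *Pdk4* (adjusted p 0.060, 0.090, 0.35 and 0.48 in limma).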

How the data were processed

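The authors deposited 1 table of RPKM values, in which read numbers are divided by transcript length and library depth, for accessions of RefSeq, Ensembl and GenBank in 6 libraries. How the deposited RPKM were counted is not given in the sources used here. STAR and GRCm38 are named for the splice analysis. Values carry decimal commas. Of 168326 lines, 168021 remained once exact repeats were removed.

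The gene value was the mean RPKM over the accessions of a symbol. Genes of mean RPKM of at least 1 were tested with limma 3.58.1 (R 4.3.3, trended variance) on log2(RPKM + 1), adjusted by Benjamini-Hochberg. The added 1 draws log2 fold changes toward 0, most for genes of few RPKM. *Pcca* thus had -0.53 at 58.6% of the control mean, where *Hadha* had -0.73 at 59.2%. The pathway genes and lists were chosen with earlier results of these data known. Values per library are given for genes called in either direction and for the most abundant gene of each role. Of the other pathway genes, those called are named, with the 4 regulators not called (*Esrra*, *Pparg*, *Nrip1*, *Pdk4*) named after their values were seen, and 1 list is not reported here. Depth came from low RPKM values, of which at least 96.1% were whole reads within 0.1. Simulated libraries of this comparison held 11492 genes with a common SD of 0.15 on the log2 scale. On them limma found 88 of 88 genes with a log2 change of 1 and 74 of 95 with 0.5. It made 9 calls among 11309 unchanged genes. The rate of such calls was not tested for genes of differing spread or for a library that deviates as control replicate 2 does. Alternatives were a pseudocount of 0.1, no filter, median of ratios scaling, a replicate block, RefSeq accessions alone, the median over accessions, no variance trend, and each library left out. Python 3.11.15, scipy 1.17.1 and matplotlib 3.10.9 were used.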

Additional observations from a re-analysis of the deposited data

How the results depend on the processing

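No setting called a pathway gene higher. The count of genes called lower was 6 without the filter, which tests 38335 genes, and 0 to 15 with 1 library left out. Over all genes, 2803 were called, 1807 without the filter, and 423 to 4784 with 1 library left out, the least without control replicate 3 and the most without KD replicate 3. The cause was not tested. With the replicate number as a block, 6 pathway genes and 1671 genes in all were called. Deviations from the group mean in samples with the same number had correlations of 0.29, -0.29 and -0.42. Replicate 3 had the lowest depth of its group in both groups, 60.8 mio mapped reads in KD and 62.9 mio in control. With so few libraries per group, the correlations cannot show whether the numbers stand for pairs. The median of the 38 was -0.34 at a pseudocount of 0.1, and -0.38 to -0.26 with 1 library left out. Of 507 recomputed fold changes of the pathway genes, 13 changed sign, each with 1 library left out and none of a called gene: *Eci2* ranged from -0.081 to 0.053, *Eci1* from -0.14 to 0.054, *Mccc1* from -0.10 to 0.13, *Acadl* from -0.29 to 0.073, *Acads* from -0.19 to 0.0029 and *Bckdk* from -0.15 to 0.011. The 10 calls held at a pseudocount of 0.1, with median of ratios scaling and with RefSeq accessions alone. The differences in the ratios of pairs, with settings chosen after seeing the data, ranged from -0.88 to -0.0052. Their negative sign in the main setting followed from putting the more lowered gene on top. At this depth *Ctcflos* and *Bdh1* rest on few reads.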
